A study of Mus musculus with 30 samples.

Results

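The microRNA precursors Mir216a, Mir216b, Mir216c, Mir217 and Mir375, which are enriched in the pancreas, and Mir6969, a precursor inside the colipase gene Clps, were described in 5 other organs. They make up 6 of the 2194 named features in each organ's table. The members were picked by symbol and were chosen by values of these same tables: their large liver fold changes and their liver levels had been seen. The liver contrast between genotypes is therefore given as a description, with no test. Small RNA libraries had been made from whole brain, heart, kidney, liver and spleen of Ftsj1-deficient mice (Ftsj1_DF) and wild-type (WT) mice, with 3 mice of each genotype. Ftsj1 encodes a methyltransferase that modifies the anticodon loop of transfer RNAs. All mice were male, 4 months old and untreated, and the same 6 mice, among them 2 sets of brothers, gave 1 library per organ, 30 in all. The sources used here do not say how the deficiency was made or how the organs were dissected, and pancreas itself was not analysed here.

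Acinar cells of the pancreas make digestive enzymes, and the islets among them release insulin and other hormones. Mir216a, Mir216b and Mir217 are transcribed from 1 locus that is known for its activity in acinar cells. Mir375 is the abundant microRNA of islet cells, and it is also made in pituitary, gut and other secretory epithelia. Colipase, the product of Clps, is the acinar protein that anchors pancreatic lipase to fat droplets. In the mouse the pancreas spreads along the stomach and duodenum, and its tail reaches the spleen.

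The mature arms below are shown because the seed, bases 2 to 8, sets which transcripts a microRNA can pair with. Seeds are in capitals, and the sequences are from RefSeq on GRCm38.p6, a different build from the GRCm39 of the deposited tables. All 6 members matched a RefSeq entry. Of Mir375 the sequence table gives the 5p arm alone, so its hairpin is shown whole with no seed marked, and miR-375-3p was not used here.
miR-216a-5p: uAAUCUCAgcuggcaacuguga
miR-216b-5p: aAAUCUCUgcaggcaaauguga
miR-217-5p: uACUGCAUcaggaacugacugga
miR-6969-3p: uGUUGUUCccaucucugcag
Mir375 hairpin: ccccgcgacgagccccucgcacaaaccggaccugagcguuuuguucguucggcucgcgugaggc
The seeds of miR-216a-5p and miR-216b-5p shared 6 of 7 bases and differed by A8U, counted from the 5′ end of the arm. None of the 11 mature arms listed for the members, miR-375-3p not among them, shared its whole seed with a precursor outside the list. Mir216b, Mir216a and Mir217 lie in this order on the plus strand of chromosome 11 within 17645 bases. Mir216b spans chr11:28746191-28746276, Mir216a spans chr11:28757012-28757083 and Mir217 spans chr11:28763728-28763835. The annotation places Mir216a and Mir217 inside the non-coding gene Gm40818 and Mir216b inside Mir217hg. Mir375 spans chr1:74900658-74900721 on the minus strand, and no other annotated gene contains it.

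Mir6969 is shown whole, because its position ties it to 1 gene. It is 61 bases long, spans chr17:28558441-28558501 on the minus strand and forms the 3′ end of an intron of Clps, with 0 bases between it and the next exon. In capitals are the last 2 bases of the intron.
Mir6969: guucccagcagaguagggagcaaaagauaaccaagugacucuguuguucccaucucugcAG

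The deposited tables hold the mean over the 6 libraries of an organ, the fold change and its standard error, and no value per library. These values carry 15 digits, from which the size factors and the whole reads of every member in every library were computed. A library was thereby known by its size factor and by its side of the authors' comparison, and not by its mouse. Reads in 3 of the libraries make a fold change larger, and these libraries are named positive-side; those that make it smaller are named negative-side. The tables do not name the genotype that stands on the positive side, so no direction is given by genotype. Libraries are numbered 1 to 3 by falling size factor within a side, so that the same number in 2 organs need not be the same mouse. Levels are normalised counts per 1000000 of an organ's summed means (RPM). The summed means were 1.07e+07 normalised counts in spleen, 1.89e+07 in liver, 2.18e+07 in kidney, 1.61e+07 in brain and 8.51e+06 in heart. Size factors ranged from 0.4999 to 2.15 in liver and from 0.628 to 1.52 in spleen. The organs carried their own defining microRNAs. Mir122 of hepatocytes stood at 261607 RPM in liver and at 207 to 588 elsewhere. The summed leukocyte list of 3 precursors stood at 14714 RPM in spleen and at 221 to 1842 elsewhere. The neuron list summed to 200469 RPM in brain against 387 to 2104 elsewhere. The striated muscle list summed to 115720 in heart against 82.8 to 332, and the kidney list to 216254 in kidney against 24251 to 70284. Of the kidney list, Mir10a, Mir10b and Mir30a were highest in kidney. Mir204 was not, at 124 RPM there against 3974 in brain and 299 in heart.

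The members were most abundant in spleen. Mir375 averaged 1849 ± 1039.7 RPM there (SD over 6 libraries of both genotypes), and Mir217 averaged 1193 ± 683. Mir216a averaged 181 ± 117 and Mir6969 averaged 26.4 ± 14.5 RPM in spleen. Mir375 was thus the 53rd and Mir217 the 69th most abundant of all spleen features. In whole organs a change in the number of cells of a type and a change in their RNA content cannot be told apart.

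**Figure D1:**
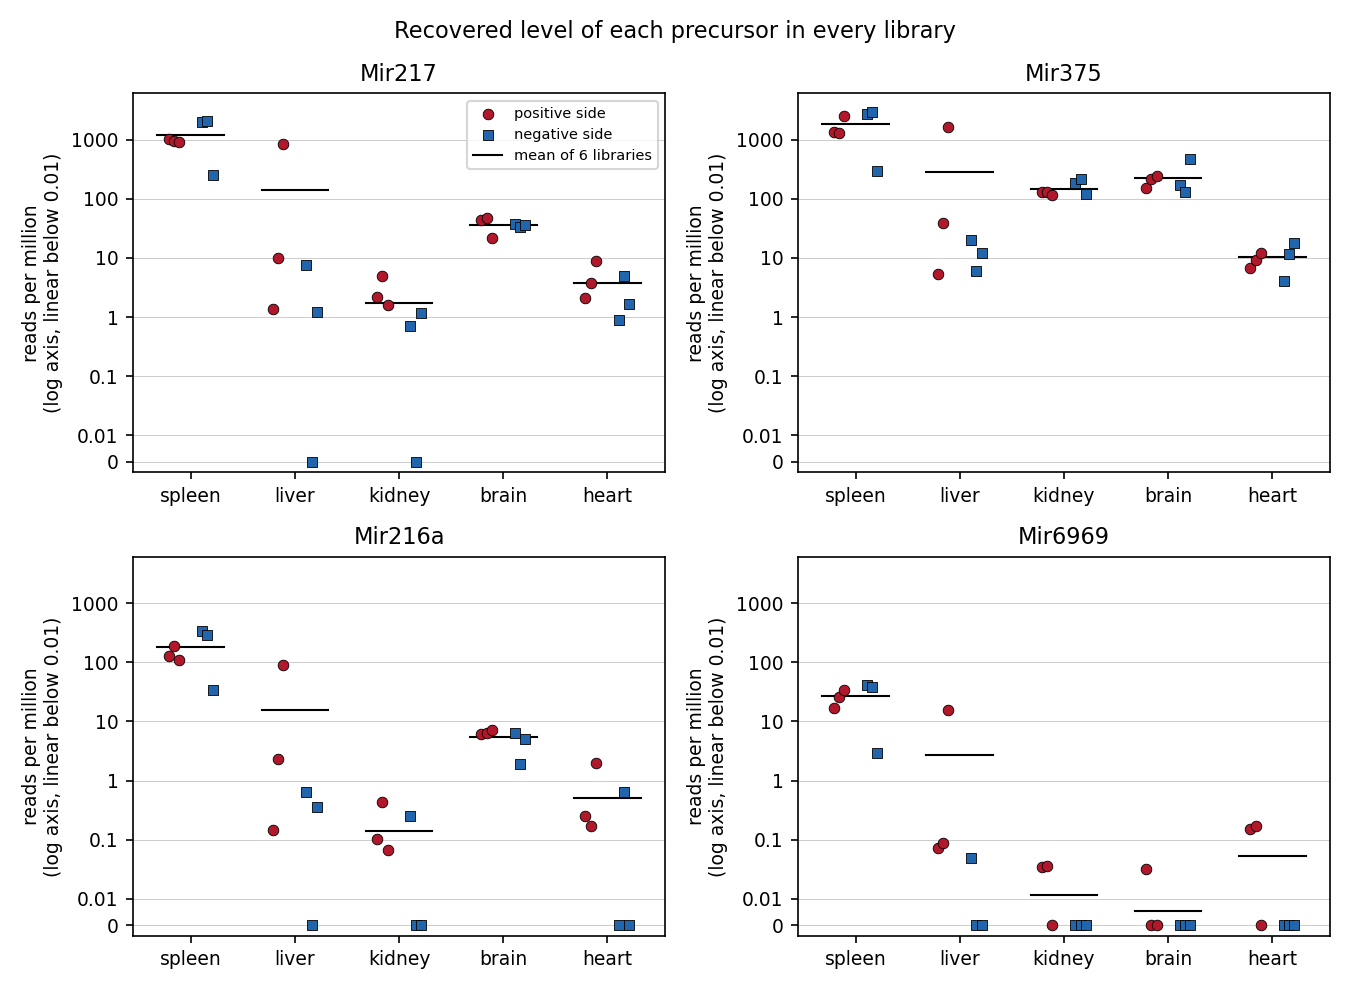
RPM of Mir217, Mir375, Mir216a and Mir6969 in each of the 6 libraries of an organ, on a log axis that is linear below 0.01; red circles are the positive side, blue squares the negative side and the bar is the mean of 6 libraries. Spleen is highest for each precursor, 1 liver library stands with the spleen libraries, and Mir217 is even in brain, where Mir6969 is close to 0.

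The order of the organs depended on the precursor. For Mir217 the means were 1193 RPM in spleen, 141 in liver, 36.3 in brain, 3.71 in heart and 1.75 in kidney. All spleen libraries exceeded all brain libraries, and all brain libraries exceeded all heart and kidney libraries, whereas heart and kidney overlapped. Liver overlapped with every other organ, since its libraries spread from 0 to 825 RPM. The liver median of 4.53 RPM was below the brain median of 36.3 and close to the heart median of 2.94. For Mir375 the means were 1849 RPM in spleen, 283 in liver, 227 in brain, 149 in kidney and 10.2 in heart. Brain and kidney overlapped, both exceeded heart without overlap, and the spleen library lowest in Mir375 fell below the highest brain library. By medians liver came after both, with 16.4 RPM of Mir375 against 190.0 in brain and 128.5 in kidney. Mir216a followed Mir217, with 181 RPM in spleen, 15.5 in liver, 5.49 in brain, 0.4998 in heart and 0.142 in kidney, and its liver median of 0.5003 lay below the brain median of 6.19. Mir6969 averaged 26.4 RPM in spleen, 2.68 in liver, 0.0531 in heart, 0.0118 in kidney and 0.00537 in brain, and its liver median was 0.0607. The last 3 levels of Mir6969 rested on 4, 2 and 1 reads over 6 libraries and did not differ beyond their spread.

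In spleen Mir217, Mir216a, Mir375 and Mir6969 shared their 2 highest libraries and their lowest, and differed in their order on the positive side. Mir217 stood at 1032, 962 and 921 RPM on the positive side, against 1947, 2046 and 253 on the negative side. Mir216a stood at 126, 188 and 109 RPM on the positive side, against 343, 290.1 and 33.3 on the negative side. The positive side was even for both, and the negative side held the 2 highest libraries and the lowest. Mir375, the islet microRNA, stood at 1332, 1287 and 2492 RPM on the positive side, against 2743, 2944 and 297 on the negative side. Mir6969 stood at 16.6, 25.8 and 34.1 RPM on the positive side, against 40.9, 37.8 and 2.95 on the negative side. Negative-side library 3 was the lowest of the 6 spleen libraries for all 4, and the sides overlapped for all 4, where 10.1% of 504 spleen features had sides that did not. This library held 9.50% of the mean of the other 5 for Mir6969, 13.7% for Mir375, 15.8% for Mir216a and 18.3% for Mir217. The reads of Mir217 and Mir375 were searched for around the library shares of Mir216a, so their likeness to Mir216a is not independent of it, whereas Mir6969 and Mir216a were split without such a guide. The search kept 6 splits for Mir217 and 23 for Mir375. The chosen ones missed the dispersion implied by the deposited standard error by 0.00306% and 0.00562%, and the nearest others by 33.2% and 7.93%. In the other splits kept, negative-side library 3 held 25.7% to 119% of the mean of the other 5 for Mir217. For Mir375 these other splits gave 8.05% to 110%.

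The spread of these precursors stood out among all spleen features. Of the 312 features with a mean above 50 normalised counts, the 5 largest standard errors of the log2 fold change in the authors' deposited table belonged to Mir6969 (0.977), Mir375 (0.903), Mir802 (0.894), Mir216a (0.883) and Mir217 (0.804). The next feature, Mir376c, had 0.635 in the authors' deposited table, and the median was 0.276. Mir802, a microRNA of hepatocytes and of pancreatic epithelium, is no member and was named after its values were seen. It was split with the same guide and stood at 751, 1083 and 1292 RPM on the positive side, against 1336, 1049 and 120.4 on the negative side. Mir802 was therefore also lowest in negative-side library 3, at 10.9% of the mean of the other 5. Mir429 and Mir141, epithelial members of the miR-200 family, were lowest in that library too, at 28.9% and 54.4% of the mean of the other 5. These and Mir802 are the 3 of the 7 listed epithelial microRNAs that were split into reads in spleen. Mir200a, Mir200b, Mir200c and Mir148a had means above the limit set for splitting and were not split. Mir802 was also above it and was split as an exception. The lowest library of the unsplit ones is therefore not known. Their standard errors in the authors' deposited table were 0.369, 0.381, 0.385 and 0.298, against 0.894 for Mir802, 0.385 for Mir429 and 0.319 for Mir141. Negative-side library 3 was the lowest library for 24.6% of the 504 spleen features with at least 20 recovered reads. Of the other islet microRNAs split into reads, Mir153 was at 27.3%, Mir7b at 89.9% and Mir184 at 111% of the mean of the other 5.

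**Figure D2:**
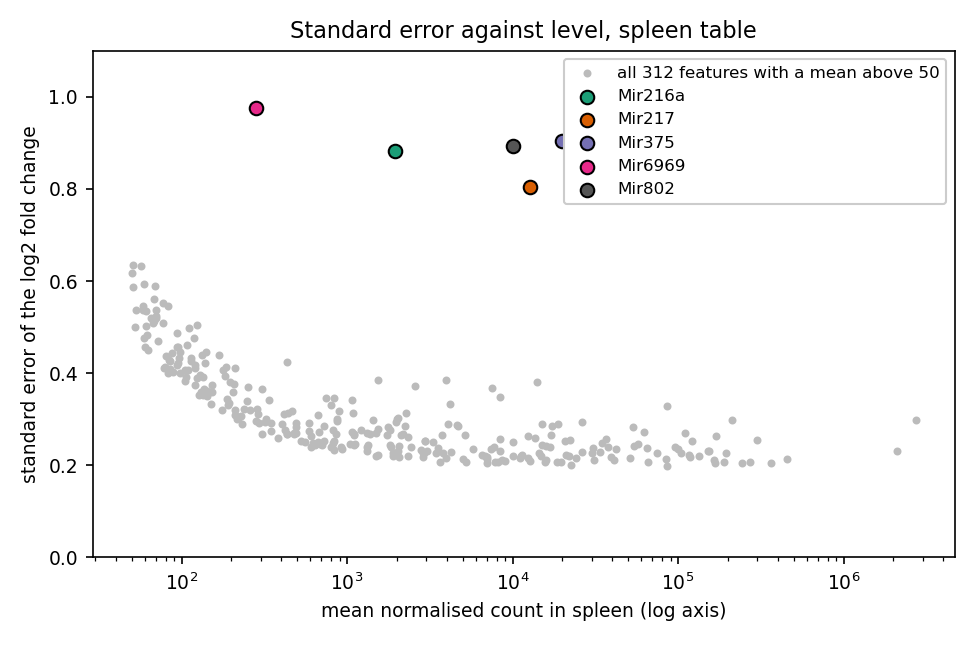
Standard error of the deposited log2 fold change against the mean normalised count (log axis) for the 312 spleen features with a mean above 50, in grey, with the members and Mir802 in colour. The 5 coloured points lie between 0.804 and 0.977, above every grey point.

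In liver, 1 library held nearly all of the members' reads. Mir217 stood at 1.38, 9.84 and 825 RPM on the positive side, against 7.69, 0 and 1.24 on the negative side. In whole reads these were 19, 112 and 7812 on the positive side, against 314, 0 and 34 on the negative side. Positive-side library 3 thus held 97.6% of the normalised counts of Mir217. Mir6969 had 1, 1 and 150 reads on the positive side, against 2, 0 and 0 on the negative side. Mir216a had 2, 26 and 849 reads on the positive side, against 26, 0 and 10 on the negative side. Mir216b had 9 reads in liver, all in the same library, which is the one of lowest size factor, 0.4999. Its share was 98.7% for Mir6969 and 96.3% for Mir216a. Mir375 had 75, 438 and 15289 reads on the positive side, against 834, 176 and 338 on the negative side, and 95.1% of its normalised counts lay in that library. The second highest library was 83.9-fold lower for Mir217, at 9.84 RPM, and 41.96-fold lower for Mir375, at 38.5.

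**Figure D3:**
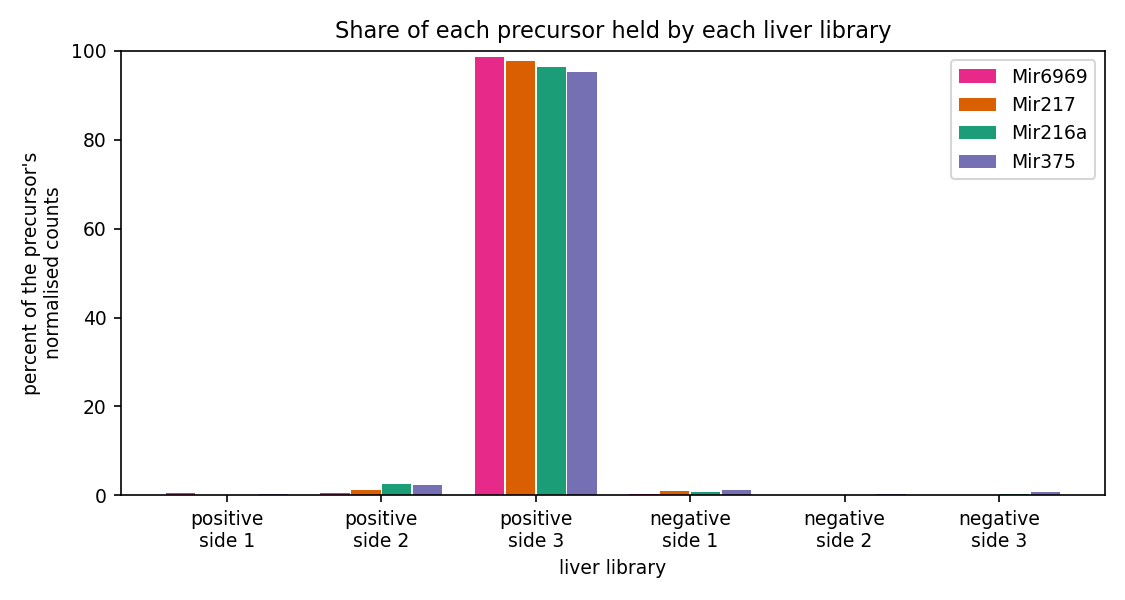
Percent of the normalised counts of Mir6969, Mir217, Mir216a and Mir375 (bars, left to right) in each of the 6 liver libraries, positive side at the left. Positive-side library 3 holds 98.7%, 97.6%, 96.3% and 95.1%.

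The other features concentrated in that library are given as a description, since the members had been chosen by liver values. Of 418 liver features with at least 20 recovered reads, 9 (2.15%) had over 80% of their normalised counts in positive-side library 3, and 4 of these were members. The other 5 were Gm54877, Mir6967-2, Mir7088, Mir7646 and Mir7670, with 24 to 53 reads each over the 6 libraries. Each of the other 5 liver libraries likewise held over 80% of 3 to 15 features, none of them a member. Some listed epithelial and islet microRNAs also had their highest liver level in positive-side library 3, by smaller margins over the next library than the members. Mir200c stood at 39.5, 43.0 and 129 RPM on the positive side, against 38.6, 53.1 and 39.2 on the negative side. Of the 5 such microRNAs with at least 20 reads that were split, Mir200c, Mir141, Mir184 and Mir153 had their highest liver level in this library and Mir7b did not. Mir141 stood at 39.6 RPM there against 26.2 in the next library. Mir184 stood at 10.1 against 6.24 and Mir153 at 1.48 against 0.878. Positive-side library 3 was the highest for 15.6% of all 418 features. The summed level of all 6 members was 2546 RPM in this library, within the 586 to 5319 of the spleen libraries, and 6.05 to 50.7 in the other 5 liver libraries. A batch label marks 1 WT library each in heart, kidney and liver as batch 2, and which recovered library that is was not tested.

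In kidney the acinar precursors were scarce and Mir375 was not. Mir217 stood at 2.18, 4.86 and 1.60 RPM on the positive side, against 0.699, 0 and 1.17 on the negative side. The sides did not overlap, on 63, 135 and 24 reads against 17, 0 and 20. Of 415 kidney features with at least 20 recovered reads, 10.1% had sides that did not overlap. The 0 lay in negative-side library 2, which was the highest library for 35.9% and the lowest for 29.9% of these features. Mir216a had 3, 12 and 1 reads on the positive side, against 6, 0 and 0 on the negative side, and Mir6969 had 2 reads in all. Mir375 stood at 127, 129.7 and 117 RPM on the positive side, against 183, 213 and 122 on the negative side. These 6 values lay within 1.82-fold of each other. Mir375 made up 98.7% of the summed level of Mir216a, Mir216b, Mir216c, Mir217 and Mir375 in kidney, against 57.4% in spleen.

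Brain held the most even levels of Mir217. It stood at 42.9, 48.0 and 21.3 RPM on the positive side, against 36.7, 32.6 and 35.9 on the negative side. Mir216a stood at 6.03, 6.36 and 7.14 RPM on the positive side, against 6.38, 1.91 and 5.11 on the negative side. Mir375 stood at 153, 213 and 240.3 RPM on the positive side, against 168, 128 and 461 on the negative side. None of these 3 was concentrated in 1 library, and the sides overlapped for each, where 9.4% of 468 brain features had sides that did not. In heart Mir217 ranged from 0.874 to 8.94, Mir216a from 0 to 1.94 and Mir375 from 4.01 to 17.6 RPM, with the sides overlapping for each. Of 460 heart features 11.3% had sides that did not overlap.

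The proportions between members differed between some organs and overlapped between others. In spleen there were 2.08 Mir6969 reads per 100 Mir217 reads (exact 95% binomial interval 1.98 to 2.18, which here and below covers counting error only). Single spleen libraries ran from 1.17 to 3.70. In liver there were 1.86 (1.57 to 2.18), and within positive-side library 3 there were 1.92. In brain there was 1 Mir6969 read beside 4014 Mir217 reads, or 0.0249 per 100 (0.000631 to 0.139). Brain thus carried Mir217 with almost no read from the Clps intron. Heart and kidney had 4 and 2 Mir6969 reads, and their intervals of 0.641 to 6.21 and 0.0930 to 2.82 per 100 Mir217 reads covered the spleen value. Pooled over libraries, the proportion of Mir216a to Mir217 varied less between organs. It was 15.3 per 100 in spleen (14.998 to 15.6), 11.01 in liver (10.3 to 11.8) and 14.8 in brain (13.6 to 16.2). Heart had 11.9 (7.09 to 18.98) and kidney 8.49 (5.23 to 13.1). In single libraries with at least 20 Mir217 reads, this proportion ran from 11.8 to 19.5 in spleen. It ran from 5.84 to 33.5 in brain, 8.28 to 29.4 in liver, 4.55 to 21.7 in heart and 0 to 8.89 in kidney.

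The proportion of Mir375 to Mir217 set kidney apart from the rest. Mir217 was scarcest there, at 1.75 RPM, whereas Mir375 at 149 RPM was below its brain mean of 227. There were 147 Mir375 reads per 100 Mir217 reads in spleen, 207 in liver, 297 in heart, 544 in brain and 7845 in kidney. Within the organs the range was 117 to 271 over the 6 spleen libraries and 357 to 1284 over the 6 brain libraries. Without positive-side library 3 the other 5 liver libraries pooled had 389 Mir375 reads (351 to 430) and 0.835 Mir6969 reads (0.227 to 2.15) per 100 Mir217 reads, on 479 Mir217 reads. Mir375 was therefore higher relative to Mir217 in these 5 liver libraries than in the 1 that held most reads, where it stood at 196.

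**Figure D4:**
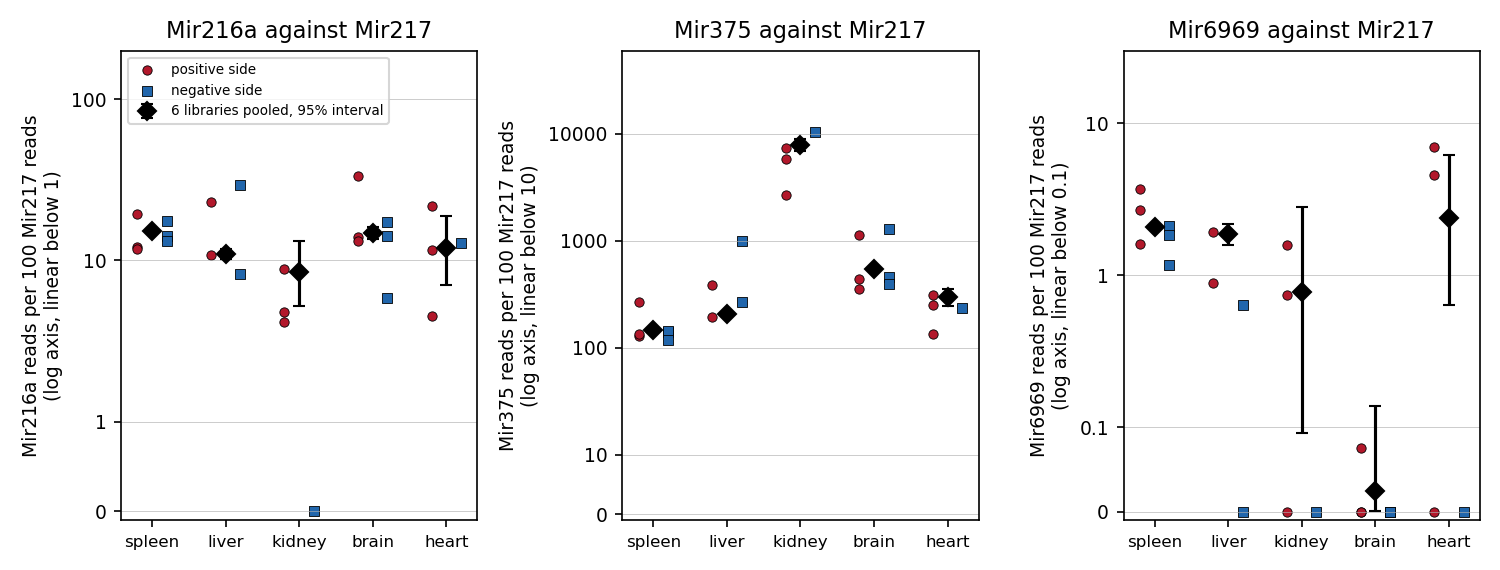
Reads of Mir216a, Mir375 and Mir6969 per 100 reads of Mir217 (log axes, linear near 0) in 5 organs; diamonds pool 6 libraries with exact 95% binomial intervals, and small points are libraries with at least 20 Mir217 reads, positive side at the left. In the pooled values Mir216a differs little between organs. Mir375 is highest in kidney at 7845 per 100, and Mir6969 is lowest in brain at 0.0249 per 100.

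A second precursor lay inside a gene of the list of 50 pancreas genes, which holds acinar genes and also islet genes such as Ins1 and Gcg. Of 959 precursors with a RefSeq position, 2 did, Mir6969 in Clps and Mir7076 in Ctrb1, the gene of chymotrypsinogen B1. Mir7076 has the same arrangement as Mir6969. It spans chr8:111689601-111689674 on the minus strand of GRCm38.p6 and forms the 3′ end of intron 1 of Ctrb1, with 0 bases between it and the next exon. It is shown for comparison with Mir6969, with the last 2 bases of the intron in capitals.
Mir7076: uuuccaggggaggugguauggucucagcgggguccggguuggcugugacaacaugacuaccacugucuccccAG
In spleen Mir7076 had 18, 34 and 66 reads on the positive side, against 47, 30 and 0 on the negative side. The 0 was again negative-side library 3. In liver its positive-side libraries had 2, 0 and 1 reads, against 0 in all 3 libraries of the negative side, and in brain, heart and kidney it was listed at 0. There were 10.6 Mir7076 reads per 100 Mir6969 reads in spleen (9.11 to 12.3), with 6.62 to 28.7 in the 5 libraries that had any. In liver positive-side library 3 there was 1 Mir7076 read beside 150 Mir6969 reads, or 0.667 per 100 (0.0168 to 3.77). The liver library thus had the Clps-derived precursor without the Ctrb1-derived one in the proportion of the pooled spleen libraries. Whether the reads of either are processed microRNA or pieces of the intron cannot be told apart, since the tables count whole precursors.

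Mir216b and Mir216c were close to 0 everywhere, and their counts are limited by their position. Mir216c, 69 bases long at chr11:28746198-28746266, lies wholly within Mir216b on the opposite strand, and both mature arms of Mir216b lie inside it. The 86 bases of Mir216b are shown with the part shared with Mir216c in capitals.
Mir216b: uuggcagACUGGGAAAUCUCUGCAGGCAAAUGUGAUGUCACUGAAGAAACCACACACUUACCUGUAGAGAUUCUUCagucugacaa
Mir216b had 3, 2 and 2 reads on the positive side of spleen, against 6, 9 and 0 on the negative side, and 9 reads in liver. It was listed at 0 in brain, heart and kidney, and Mir216c was listed at 0 in all 5 organs. The annotation holds 20 pairs of precursors that overlap on opposite strands, 19 of them nested. In the 17 of unequal length the inner precursor was listed at 0 in all 5 organs, and in the 2 of equal length both precursors were. Of the 919 precursors in no such pair, 9.03% were at 0 in all 5 organs. Among the 19 were Mir142 and Mir451a, which are abundant in blood cells. Whether strand was used and how reads shared by overlapping precursors were counted is unstated in the sources used, so the reads of Mir216b and Mir216c cannot be told apart. Mir216b reads relative to Mir216a were 1.06 per 100 in liver positive-side library 3 (0.483 to 2.02), against 0.163 per 100 in spleen (0.102 to 0.247).

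No member that had an adjusted p passed the test for genotype. Mir216a, Mir217, Mir375 and Mir6969 had a Wald score and no p-value in liver, so they had no test result there. The test was the authors' DESeq2 Wald test, with the deposited adjusted p below 0.05. In spleen 0 of 5 members with reads were called, with 0% of 1208 features called in the table. Brain and kidney had 0 of 4 members called, with 0% of 1030 and 0% of 1022 features called. In heart 0 of the 2 members with an adjusted p were called, with 1.13% of 355 features called. In liver 0.229% of 872 features were called, and the only member with an adjusted p there was Mir216b. At an unadjusted p below 0.05 the members numbered 1 in kidney and 0 in spleen, brain and heart, beside 4.5%, 3.48%, 2.23% and 5.33% of all features tested.

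In the authors' deposited table for spleen Mir217 had a log2 fold change of -0.54 ± 0.80 (SE) with DESeq2's adjusted p = 0.988. Mir216a had -0.66 ± 0.88, Mir375 -0.23 ± 0.90 and Mir6969 -0.09 ± 0.98 in the authors' deposited table for spleen. The median of the 5 members was -0.54, beside 0.00118 over all features in the authors' deposited table. The 95% intervals of these 4 all contained 0, and that of Mir217 ran from -2.12 to 1.03. Left out of the recovered counts, negative-side library 3 moved the log2 ratio of sides for Mir217 to -1.04, and negative-side library 2 moved it to -0.18. Leaving out 1 library at a time gave -0.74 to 0.16 for Mir375 and -0.62 to 0.32 for Mir6969.

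Kidney held the 1 member with a low unadjusted p. In the authors' deposited table for kidney, Mir217 had a log2 fold change of 2.22 ± 1.07 (SE), with DESeq2's p = 0.0375 and adjusted p = 0.975. Its sides did not overlap, as was the case for 10.1% of the 415 kidney features with at least 20 recovered reads. An exact two-sided permutation test of 3 against 3 gave p = 0.1, the smallest it can give. Mir375 had -0.47 ± 0.34 and Mir216a 1.27 ± 2.55 in the authors' deposited table for kidney. The difference of Mir217 between spleen and kidney was -2.76 ± 1.34 on the log2 scale from the authors' deposited table (normal approximation from DESeq2's standard errors, p = 0.0386, adjusted p = 0.692 over 24 differences among spleen, kidney, brain and heart). No other of the 24 was below 0.05. The standard errors treat the organs as independent, although the organs come from the same mice. Such differences also assume the same genotype on the positive side in every organ, which is not stated.

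Brain and heart gave no call. The authors' deposited table for brain had log2 fold changes of 0.10 ± 0.34 for Mir217, 0.53 ± 0.50 for Mir216a and -0.32 ± 0.40 for Mir375. The authors' deposited table for heart had 1.00 ± 0.78 for Mir217 and -0.23 ± 0.52 for Mir375. The signs for Mir217 were positive in kidney, brain and heart and negative in spleen. They compare only if the same genotype stands on the positive side in each organ, which is not stated.

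In liver the authors' deposited table listed log2 fold changes of 8.20 ± 2.00 for Mir6969, 6.55 ± 2.65 for Mir217, 6.52 ± 2.35 for Mir216a and 5.42 ± 1.78 for Mir375. These are the values that chose the members, and the table has no p-value for any of the 4. From the recovered counts the log2 ratio of the positive over the negative side, summed over the members, was 5.74, and from reads without normalisation it was 3.84. Positive-side liver libraries had a mean size factor of 0.610, against 1.71 for negative-side ones. Without positive-side library 3 it was 0.83, and without any 1 of the other libraries it stayed between 5.35 and 6.44. For Mir217 alone the ratio was 6.55 with all libraries and 0.91 without positive-side library 3.

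**Figure D5:**
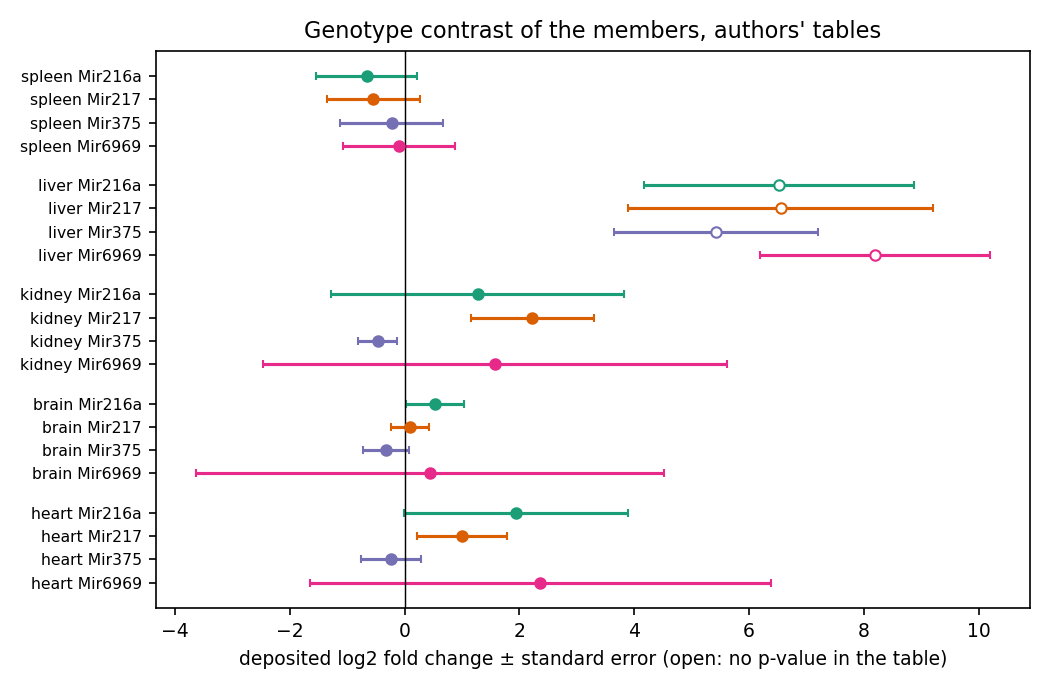
Deposited log2 fold change with its standard error (bars) for Mir216a, Mir217, Mir375 and Mir6969 in 5 organs; open circles have no p-value in the table. The liver values run from 5.42 to 8.20, and no value of another organ passed an adjusted p of 0.05.

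The organ profile of the acinar cluster was set beside that of other features. Over the 5 organs the level of Mir6969 had a Pearson r of 0.90 with the summed Mir216a, Mir216b and Mir217 level, and Mir375 had 0.80 (log2 scale, 5 points, a description only). The points are organ means, and in liver positive-side library 3 held 98.7% of Mir6969, 97.6% of Mir217 and 95.1% of Mir375. Outside the members the 5 most alike of 635 features were Mir7646 (0.89), Mir466n (0.88), Mir5122 (0.82), Mir350 (0.80) and Mir7076 (0.80). The list depends on the filter of a mean of at least 10 in 1 organ: with at least 1, 0 of these 5 were among the 5 most alike. Mir7646 stood at 2.31 RPM in spleen and 0.712 in liver, and at 0.0417 to 0.117 elsewhere. Of the wider islet list 6 of 8 precursors were matched, led by Mir7-2 and Mir7-1 at 2041 and 1491 RPM in spleen, and both were higher in brain, at 5094 and 4668. The 7 epithelial microRNAs of ducts and acini were led by Mir148a, at 44014 RPM in liver and 19640.3 in spleen. The gut list of 6 summed to 1194 RPM in spleen and 76896 in liver, where Mir192 led with 42181. None of the listed precursors that had an adjusted p was called, and some had none, such as Mir375 in liver, Mir153 in heart and Mir7b in kidney.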

How the data were processed

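The members, gene lists and alternatives were chosen with earlier results of these data known. Counting by the authors used featureCounts of Subread 2.0.3 with build GRCm39, and their comparison used DESeq2, per the submitters' processing notes. Aligner, annotation and strand setting are unstated in the sources used. The authors deposited 1 table per organ of 2195 rows, of which 1 without a name was left out (at most 1.82e-05% of an organ's total), with 0 columns for single samples. What the authors give as the mean is a signal: counts over size factors, averaged over 6 libraries. Fold changes and errors were deposited as log2 values. A Wald score, its p-value and the adjusted p-value complete the columns, per the file headers.

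Means of features with 1 read gave 6 size factors per organ, which explained all 230, 355, 280, 227 and 330 means below 1 in brain, heart, kidney, liver and spleen. Whole reads were the split that matched the mean and gave the deposited fold change and standard error in a negative binomial fit of 2 groups, within 3e-14 on the log2 scale. For Mir217, Mir375 and Mir802 in spleen only splits near the library shares of Mir216a were searched, and the one of smallest residual was taken. For Mir217 a second split was also within that limit (1.82e-14). It would put negative-side library 3 at 119% of the mean of the other 5, against 18.3% in the chosen split. Its gene-wise dispersion of 0.271 missed the implied 0.466, which the chosen split matched. Such a match is not general, since for Mir375 in brain the chosen split gave 0.251 against 0.117 implied. Features other than the members and Mir802 with a mean above 2500 were not split. Tested on simulated data with means up to 300, 200 of 200 features were recovered. Larger means, and the search near the library shares of Mir216a, were not tested in this way. The fold change is exact only with the positive side as the intercept group, and that group is not named in the tables. Named features were the members and the 5 most alike over organs (log2 of RPM plus 0.1, mean of at least 10 in 1 organ). Liver features with over 80% of normalised counts in the library richest in Mir6969 were named too. So were precursors within the listed acinar and islet genes, and listed markers. Python 3.11.15, numpy 2.4.6 and scipy 1.17.1 were used. Depth in reads is known for split features only. The binomial intervals were taken on pooled or single-library reads, so they cover counting error and not the spread between animals.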

Additional observations from a re-analysis of the deposited data

How the results depend on the processing

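No paired analysis was possible because the tables hold no value per mouse. No member was called in spleen, brain or heart by the adjusted or the unadjusted p, and in kidney the unadjusted p called 1. With the 10 most abundant features left out of the denominator, the summed level of the miR-216, miR-217 and miR-375 precursors was 9375 RPM in spleen, 1819 in liver, 444 in kidney, 498 in brain and 33.5 in heart. By the median over libraries it was 21.3 RPM in liver, against a mean of 439, which puts liver below brain (239) and kidney (132). In raw reads the top library held 34.6% of the members in spleen, 90.9% in liver, 22.9% in kidney and 23.7% in brain, and in spleen, brain and heart (26.9%) it was another library than by normalised counts. Without the highest liver library Mir375 made up 77.8% of the summed level. With a mean of at least 1, 0 of the 5 most alike features were the same. The cause of these shifts was not tested. Leaving out 1 library at a time, the log2 ratio of sides ran from 0.83 to 6.44 in liver, from -0.87 to 0.01 in spleen and from -0.64 to -0.27 in kidney; the spleen and kidney ranges were added after the data had been seen. For Mir217 in kidney it ran from 1.60 to 3.04. An exact permutation test of 3 against 3 cannot go below 0.1.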
